A study of Mus musculus with 6 samples.

Results

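The 10 genes known as classical glucocorticoid-induced targets were examined for chromatin accessibility in mouse hepatocyte nuclei, namely Tat, Tsc22d3, Sgk1, Dusp1, Errfi1, Zbtb16, Mt1, Mt2, Ddit4 and Tfcp2l1. The assay was ATAC-seq by the Omni-ATAC protocol, where a transposase inserts sequencing adapters into accessible DNA. The nuclei came from livers of male mice and had been sorted for HNF4a, a transcription factor of hepatocytes. The mice carried floxed alleles of Ncor1, which encodes a nuclear receptor corepressor, and of a second gene. They received an adeno-associated virus (AAV) that carried either Cre recombinase (dKO, 3 libraries) or eGFP (control, 3 libraries), so the floxed alleles were common to both groups. All livers were taken on day 5 after the virus at zeitgeber time 10, which is 10 h after lights on. The promoter in front of Cre, the age of the mice and the number of animals behind a library were not given in the sources used here, so the p-values rest on variation among libraries that could be technical in part. The series' title names corepressors, the glucocorticoid receptor and hepatic gluconeogenesis as its subject.

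Peaks of the 6 deposited lists that shared at least 1 bp were merged into regions, and a region was assigned to the gene whose span lay nearest to its midpoint within 50 kb. By this rule 122 of 109853 regions belonged to the 10 genes, and each gene had at least 4. The value of a region in a library was its highest normalized tag count, which is the number of tags in the peak as the authors scaled it to library depth. A peak was present in all 6 libraries in 51 of the 122 regions (41.8%), against 51749 of all regions (47.1%). Only these shared regions could be tested in all libraries. An average over nuclei does not tell a lower value in every nucleus from a loss in some of them.

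The glucocorticoid receptor is a nuclear receptor that enters the nucleus when it binds its hormone and attaches to DNA at glucocorticoid response elements, often far from the genes it acts on. In the liver it raises the output of glucose and the breakdown of amino acids during fasting. The genes examined serve different ends. Tat encodes tyrosine aminotransferase, a liver enzyme of tyrosine breakdown. Tsc22d3 encodes GILZ, a mediator of the anti-inflammatory action of glucocorticoids, Dusp1 a phosphatase that switches off MAP kinases, Errfi1 an inhibitor of the EGF receptor, and Ddit4 an inhibitor of mTORC1. Sgk1 encodes a kinase that acts on ion transport, Mt1 and Mt2 encode metal-binding metallothioneins, and Zbtb16 and Tfcp2l1 encode transcription factors.

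Sequences upstream of 7 starts of 6 genes are given here to show where response elements lie relative to peaks, as the 250 bases before the annotated start, 5′ to 3′ on the gene's strand. They come from RefSeq, build GRCm38.p6 (the same assembly as mm10), whose table matched 9 of the 10 genes with 17 starts. Capitals mark a match on either strand to ACANNNTGT, the core of the glucocorticoid response element, shown with its flanking bases where G stood 2 bases before it and C 2 bases after it, to TGCACNC or TGCGCNC, cores of the metal response element, or to TGACGTCA, the cyclic AMP response element. No marked matches overlap a match to another of these motifs.
Mt1, chr8:94178839-94179088, plus strand: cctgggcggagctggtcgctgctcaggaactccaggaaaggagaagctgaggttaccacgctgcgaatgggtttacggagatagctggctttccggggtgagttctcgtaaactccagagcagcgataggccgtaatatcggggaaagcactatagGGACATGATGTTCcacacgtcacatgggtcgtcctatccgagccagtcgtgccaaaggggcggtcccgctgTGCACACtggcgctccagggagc
Mt2, chr8:94172368-94172617, plus strand: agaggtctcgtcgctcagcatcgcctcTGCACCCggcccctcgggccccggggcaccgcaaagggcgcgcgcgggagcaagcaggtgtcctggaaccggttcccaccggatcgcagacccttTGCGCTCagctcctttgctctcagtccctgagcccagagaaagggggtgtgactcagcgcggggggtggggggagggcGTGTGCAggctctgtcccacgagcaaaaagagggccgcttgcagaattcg
Sgk1, start at 21993890, chr10:21993640-21993889, plus strand: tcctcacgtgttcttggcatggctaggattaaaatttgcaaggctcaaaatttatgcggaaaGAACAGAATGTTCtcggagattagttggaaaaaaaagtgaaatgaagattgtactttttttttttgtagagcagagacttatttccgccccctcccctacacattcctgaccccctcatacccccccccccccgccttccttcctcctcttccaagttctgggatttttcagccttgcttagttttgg
Sgk1, start at 21994666, chr10:21994416-21994665, plus strand: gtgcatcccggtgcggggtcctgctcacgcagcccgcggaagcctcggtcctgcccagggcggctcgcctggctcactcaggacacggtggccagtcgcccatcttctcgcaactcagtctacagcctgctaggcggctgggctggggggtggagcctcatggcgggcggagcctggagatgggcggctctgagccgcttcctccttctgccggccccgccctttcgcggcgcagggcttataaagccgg
Dusp1, chr17:26508473-26508722, minus strand: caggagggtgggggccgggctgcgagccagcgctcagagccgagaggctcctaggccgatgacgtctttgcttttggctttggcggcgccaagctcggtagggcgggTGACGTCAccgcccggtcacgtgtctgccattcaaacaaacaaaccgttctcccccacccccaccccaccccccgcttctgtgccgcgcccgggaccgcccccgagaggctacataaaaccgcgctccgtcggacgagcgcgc
Errfi1, start at 150855070, chr4:150854820-150855069, plus strand: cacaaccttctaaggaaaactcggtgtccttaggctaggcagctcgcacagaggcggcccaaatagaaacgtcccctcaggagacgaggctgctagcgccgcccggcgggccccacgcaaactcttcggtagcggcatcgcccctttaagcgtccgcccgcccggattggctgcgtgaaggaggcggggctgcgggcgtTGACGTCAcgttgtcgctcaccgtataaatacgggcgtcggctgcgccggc
Ddit4, chr10:59951771-59952020, minus strand: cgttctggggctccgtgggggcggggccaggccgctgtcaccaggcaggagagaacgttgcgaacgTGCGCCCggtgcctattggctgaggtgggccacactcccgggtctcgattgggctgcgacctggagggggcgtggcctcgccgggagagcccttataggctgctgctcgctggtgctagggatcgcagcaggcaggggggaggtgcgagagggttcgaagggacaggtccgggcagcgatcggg

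The Mt1 window held the flanked response element core once, 94 to 82 bases before the start, and a metal element core 23 to 17 bases before it. The shared region at the Mt1 start covered the metal element core whole and 7 of the 13 bases of the flanked glucocorticoid core. At the Ddit4 start, a shared region covered whole the single metal element core, 184 to 178 bases before the start. The Mt2 window held 3 metal element cores, none of them under a peak, and no glucocorticoid element core. The flanked core also lay 188 to 176 bases before the Sgk1 start at 21993890, where none of the 6 lists had a peak, and the core without its flanks before the start at 21978672, also outside any peak. The window of the Sgk1 start at 21994666 had a shared region and no match. Single cyclic AMP elements lay before Dusp1 and before the Errfi1 start at 150855070. Peaks of some libraries reached into both windows, and none covered the element. Of 32619 windows of this length in the RefSeq table, 5.88% held ACANNNTGT, 0.389% its flanked form, 10.5% TGCACNC, 12.6% TGCGCNC and 1.56% TGACGTCA. A match describes letters and not a bound site.

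Across the 51 shared regions, 9 were lower and 5 higher in dKO and 37 were not called, by limma with Benjamini-Hochberg adjustment over all 51749 shared regions at a threshold of 0.05. These are 17.6% lower and 9.8% higher, beside 11.6% lower and 8.19% higher among all shared regions. The median log2 fold change, dKO minus control on the log2(normalized tags + 1) scale, was -0.21 over the 51 regions and -0.02 over all shared regions. The lower calls lay at Tat (3), Tsc22d3 (4), Sgk1 (1) and Mt2 (1), and the higher calls at Tfcp2l1 (3), Mt1 (1) and Zbtb16 (1). Dusp1, Errfi1 and Ddit4 had none. All dKO values lay below all control values in 11 of the 51 regions (21.6%, beside 15.8% of all shared regions) and above them in 4 (7.84%, beside 12.6%). No region of the 122 was called in every dKO library while lacking in every control (1.57% of all regions were), and none the other way round (1.34%). Without centring of the libraries the calls at the 10 genes were 6 lower and 2 higher, beside 4655 lower and 2562 higher of all 51749. Quantile normalization gave 7 and 4, beside 4585 and 4473, and cyclic loess normalization 8 and 3, beside 4610 and 4323. The median change of the 51 regions was -0.27 without centring, -0.12 with quantile and -0.10 with cyclic loess normalization. Over all shared regions it was -0.08, 0.005 and 0.003.

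Calls were also set against the distance to annotated starts. Of the 7 shared regions within 1 kb of any start in the RefSeq promoter table, limma called 0 at the adjusted threshold. Of these 7, 4 had an unadjusted p under 0.05. Among the 10875 shared regions that near to a start, 10.6% were lower and 2.84% higher by the same limma fit, so a count of 0 in 7 does not stand apart. The 9 lower regions were 1870 to 16852 bp from any start in that table. The table has no Zbtb16 start, and it lists Tat at 109990436 only. The called Tat region at 109986433 lies 458 bp inside the upstream end of the gene's longest annotated span, at 109986078. The counts within 1 kb therefore hold for the starts of that table only. At regions farther than 1 kb, 9 of 44 were lower and 5 higher, beside 11.8% and 9.63% of all such regions.

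Cell type markers, peak width and single libraries were set beside these calls. Regions at 8 hepatocyte marker genes, read as a check of the sort, were lower in 14 of 33 tests and higher in 0. Among all shared regions 11.6% were lower and 8.19% higher. Levels at the hepatocyte marker genes, summed over called peaks, were 1253 to 1364 normalized tags in dKO and 1374 to 2183 in control libraries. All 8 genes had regions. Summed levels at the marker genes of other cell types were 20.6 to 38.3 in dKO and 26.4 to 41.4 in control for macrophages (no region at Vsig4 or Cd68), and 295.1 to 446.7 in dKO and 367.0 to 457.0 in control for endothelium. They were 36.5 to 50.8 in dKO and 35.7 to 43.5 in control for stellate cells (none at Dcn), and 92.3 to 96.2 in dKO and 72.8 to 84.3 in control for cholangiocytes (none at Krt19 or Krt7). The groups did not overlap for hepatocyte markers, lower in dKO, and for cholangiocyte markers, higher in dKO. They overlapped for the other 3 of these lists. The hepatocyte sums of dKO 3 (1364) and control 3 (1374) were close, and control 1 was highest at 2183. A sum also depends on how many peaks a library has. By limma, 4 of 24 endothelial regions were lower and 1 higher, and 1 of 2 macrophage regions was lower and 0 higher. Of 5 stellate and of 5 cholangiocyte regions, 1 each was higher and 0 lower. Peak width was set per library and differed, at 172 bp in dKO 3 and control 3, 166 bp in control 2 and a narrower, common width in dKO 1, dKO 2 and control 1. A wider window can hold more tags. Each width class has an arm of 1 library, control 1 in the narrow class and dKO 3 in the wider one. All 9 lower regions were lower in both classes. They were called from these same libraries, so that agreement is no test of peak width. The median change of the 51 regions was -0.29 among the narrow-peak libraries and -0.06 among the wider ones, beside -0.03 and 0.01 over all shared regions. With the width class as a term, of the 14 called regions only that at Tsc22d3 starting at 140591256 lost its call. On the centred scale of the fit, dKO 3 was the dKO library nearest to the controls in 7 of the 9 lower and 4 of the 5 higher regions. This held for 81.2% of all lower and 78.8% of all higher regions. In uncentred tags, as printed below, dKO 3 was the highest dKO library in every lower region and in some of the higher ones. Without dKO 1 the same fit called 0 of these regions lower (10 at an unadjusted p under 0.05) and 1 higher, beside 2151 lower and 1553 higher of 53062 in all. Without dKO 2 it called 1 lower and 0 higher (17 and 4 at an unadjusted p under 0.05), beside 1410 and 1236 of 52600. Without control 1, 8 of the 14 calls were kept, without control 2, 6 were, and without control 3, 10 were. These counts, and that with the width term, concern the 14 regions only, and the share kept among all called regions is not given. All 14 called regions kept their direction without each library. The part of these factors in the results was not tested.

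**Figure D1:**
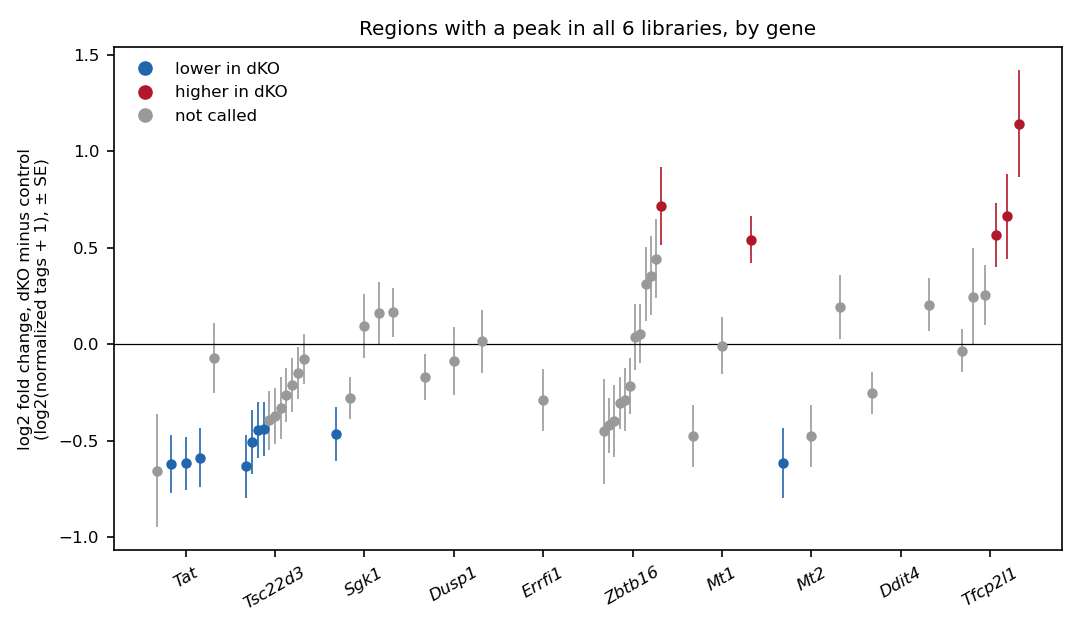
Log2 fold changes (dKO minus control, with the moderated standard error as bars) of the 51 regions with a peak in all 6 libraries, grouped by gene and ordered by size within a gene. All 11 Tsc22d3 and all 5 Tat points lie below 0, and 5 of the 6 Tfcp2l1 points above it.

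Accessibility upstream of Tat was lower in dKO. All 5 shared Tat regions had a negative change, and 3 of them were called, all upstream of the promoter table's start at 109990436 on chromosome 8 (mm10). The region at 109986433 to 109986639, 3900 bp before that start and within the gene's longest annotated span, had 22.6, 23.2 and 30.7 normalized tags in dKO 1 to 3, against 45.2, 44.5 and 34.3 in control 1 to 3. Its groups did not overlap, and dKO 3 and control 3 lay closest to each other. The log2 fold change was -0.62 (SE 0.14, limma adjusted p = 0.00825), with -0.82 among the narrow and -0.44 among the wider libraries.

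The next Tat region, at 109982485 to 109982733 and 7827 bp before the start, had 20.8, 17.2 and 28.4 normalized tags in dKO and 33.6, 43.7 and 30.2 in control libraries (log2 fold change -0.62, SE 0.15, limma adjusted p = 0.0125). Again the groups did not overlap. At 109979494 to 109979697, 10841 bp before the start, values were 25.4, 20.4 and 35.1 in dKO and 43.5, 49.7 and 33.9 in control libraries (-0.59, SE 0.15, limma adjusted p = 0.0170). Here dKO 3 exceeded control 3. In rats, upstream enhancers that respond to glucocorticoids are a textbook feature of this gene. Without dKO 1 all 3 Tat calls were lost (limma adjusted p 0.0517 to 0.0755), and without dKO 2 only that at 109986433 remained.

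The tallest Tat region lay 387 bp past the gene's end, at 110000090 to 110000293. It had 34.7, 57.2 and 72.5 normalized tags in dKO, against 87.6, 143.4 and 52.1 in control libraries. The groups overlapped, because dKO 2 and dKO 3 exceeded control 3, and the change of -0.66 was not called (SE 0.29, limma adjusted p = 0.129). It was called in 2 of 19 alternatives, 1 of them the fit without control 3 (log2 fold change -1.04, limma adjusted p = 0.0155, with 0.0142 to 0.448 over the alternatives). The last shared region, 11267 bp past the gene, changed by -0.07 and had 5.6 to 7.96 normalized tags in dKO and 6.55 to 8.9 in control libraries. None of the 6 lists had a peak in the 250 bases before the Tat start.

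All changes at Tsc22d3 had the same sign. Its 24 regions on chromosome X included 11 shared ones, all with negative changes of -0.08 to -0.63, of which 4 were called lower. All dKO values lay below all control values in 8 of the 11. With quantile or cyclic loess normalization 10 of the 11 changes were negative. The gene runs on the minus strand from its most upstream start at 140600522.

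Beyond the 3′ end of Tsc22d3, the region at 140532460 to 140532664, 6966 bp past the span, had 8.68, 10.2 and 14.3 normalized tags in dKO and 18.0, 18.4 and 18.1 in control libraries. The controls were nearly equal while the dKO libraries spread more widely, and the log2 fold change was -0.63 (SE 0.16, limma adjusted p = 0.0164). A neighbour at 140529384 to 140529629 had 11.8, 10.7 and 14.2 in dKO and 17.9, 17.9 and 17.1 in control libraries (-0.44, SE 0.14, limma adjusted p = 0.0408). Both regions were lower in every dKO library than in any control.

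Inside Tsc22d3, the region at 140591256 to 140591486, 9151 bp after the most upstream start, had 11.9, 12.6 and 15.8 normalized tags in dKO and 18.3, 20.9 and 18.9 in control libraries (log2 fold change -0.44, SE 0.14, limma adjusted p = 0.0453). At 140565337 to 140565509, values were 14.2, 16.7 and 21.1 in dKO and 30.9, 26.5 and 21.0 in control libraries (-0.51, SE 0.17, limma adjusted p = 0.0464). In the second of these dKO 3 and control 3 were almost equal, while the other dKO libraries lay below every control. The shared region nearest to a gene end, at 140599336 to 140599531 and 1089 bp after the start, had 20.5, 25.2 and 27.9 in dKO and 33.2, 28.5 and 30.6 in control libraries, a change of -0.26 that was not called (limma adjusted p = 0.197) although the groups did not overlap.

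The tallest Tsc22d3 site was not shared, and the lists split it. Between 140543092 and 140543264, just before the start at 140542668, there were 16.8 and 26.6 normalized tags in dKO 1 and dKO 3 and 36.4 and 35.7 in control 1 and control 2. From 140543293 to 140543465, dKO 2 had 16.6 and control 3 had 35.9. Side by side, each dKO value of the site was below each control value. In a fit that left libraries without a peak missing, the first of these gave -0.78 (SE 0.18, limma adjusted p = 0.0130), with dKO 2 and control 3 absent from it. Regions needed a peak in at least 2 libraries of each group, which added 19 at the 10 genes, most of them not called. In all, 12 of 70 regions at the 10 genes were lower and 6 higher, beside 10.4% and 7.67% of 62576. Values missing for want of a peak are not missing at random. That fit also called a region 28291 bp past the gene (7.17 and 10.9 in dKO 1 and dKO 3, against 14.6, 15.2 and 13.0 in control libraries), at -0.66 (SE 0.19, limma adjusted p = 0.0343). All 4 calls in the shared regions were lost without dKO 1 (limma adjusted p 0.0889 to 0.208) or without dKO 2 (0.0606 to 0.136). Without control 1, and likewise without control 2, 1 of the 4 kept its call, and without control 3, 2 did.

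**Figure D2:**
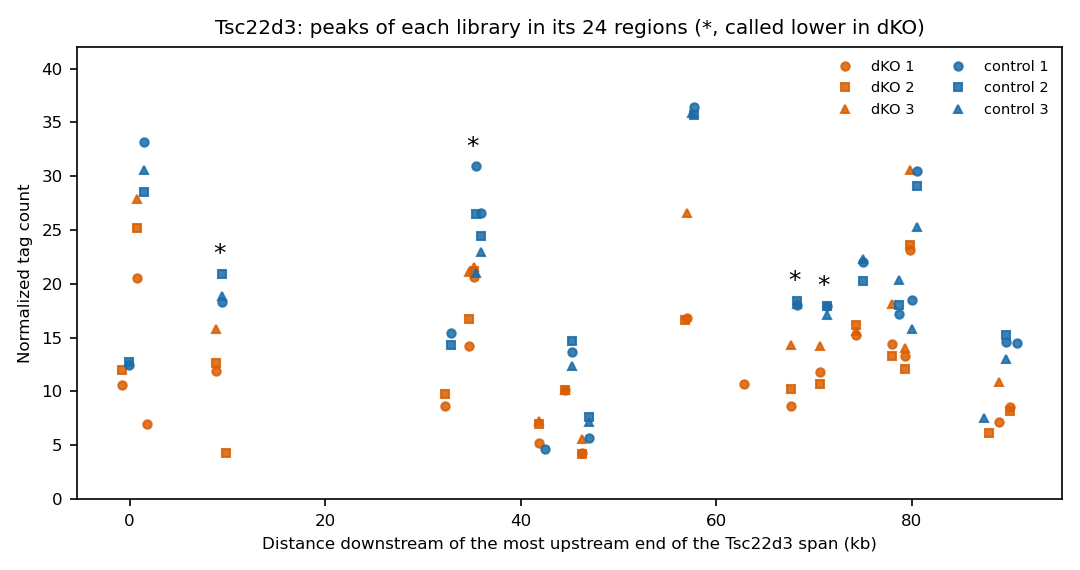
Normalized tag counts of every peak in the 24 Tsc22d3 regions against the distance from the most upstream end of the gene, with dKO libraries in orange drawn slightly left of the control libraries in blue. The 4 regions called lower carry an asterisk, and in 8 of the 11 shared regions all orange points lie below all blue ones.

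The signalling inhibitors Dusp1, Errfi1 and Ddit4 had 6 shared regions and no call by limma, with 1 of them, at the Ddit4 start, at an unadjusted p under 0.05. Dusp1 had 8 regions, 3 of them shared, with changes of -0.17 to 0.01. The shared one nearest to the gene, 4152 bp upstream at chromosome 17, 26512533 to 26512716, had 27.2, 21.3 and 32.6 normalized tags in dKO and 32.7, 31.9 and 29.7 in control libraries (log2 fold change -0.17, SE 0.12, limma adjusted p = 0.340). Its groups overlapped, with dKO 3 near control 1. The tallest Dusp1 region on average, at 26508670 to 26508881 before the start, had 29.4, 27.1 and 42.7 in dKO and 43.2 and 33.2 in control 1 and control 3, with no peak in control 2. With control 2 missing from the fit its change was -0.16 (SE 0.16, limma adjusted p = 0.525).

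Ddit4 had a shared region over its start, at chromosome 10, 59951710 to 59951974. Values there were 41.0, 35.8 and 46.7 normalized tags in dKO and 56.2, 48.7 and 48.7 in control libraries. Every dKO value was below every control value, yet the change of -0.25 was not called (SE 0.11, limma adjusted p = 0.116). The other shared Ddit4 region, 5816 bp past the gene, changed by 0.21 (limma adjusted p = 0.313).

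Errfi1 had 10 regions on chromosome 4 and 1 shared one, 28797 bp upstream, with 7.17, 6.06 and 9.05 normalized tags in dKO and 9.26, 11.3 and 8.52 in control libraries (log2 fold change -0.29, limma adjusted p = 0.224). Its tall sites were called in some libraries. At 150854126 to 150854298, inside the gene, there were 34.9, 36.6 and 61.2 in dKO and 69.5 and 69.7 in control 1 and control 2, with no peak in control 3. That site gave -0.64 (SE 0.16, limma adjusted p = 0.0197) with control 3 missing from the fit. Beside the second start, at 150854845 to 150854955, dKO 1, dKO 2 and control 1 had 27.7, 33.1 and 59.0. At 150871777 to 150871887, 2943 bp past the gene, dKO 1 and dKO 2 had peaks of 45.2 and 70.0 and no other library had one. That site was the tallest of the gene by its mean.

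Sgk1 had 9 regions on chromosome 10, of which 5 were shared and 1 was called lower. The called region, at 22001702 to 22001918 and 1907 bp past the gene, had 21.9, 21.2 and 34.9 normalized tags in dKO and 34.7, 40.3 and 36.1 in control libraries (log2 fold change -0.47, SE 0.14, limma adjusted p = 0.0308). dKO 3 fell among the controls here. The call was lost in 9 of 19 alternatives, among them the other scalings and the fits without dKO 1, dKO 2 or control 2 (adjusted p up to 0.151). The tallest Sgk1 region ended just before the start at 21994666, at 21994449 to 21994646, and had 53.5, 49.6 and 68.6 in dKO and 71.9, 76.8 and 67.7 in control libraries. Its groups overlapped by dKO 3 alone, and the change of -0.28 was not called (SE 0.11, limma adjusted p = 0.0811, and 0.0308 without dKO 3). The other 3 shared regions had changes of 0.09 to 0.17.

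At the neighbouring metallothionein genes 1 region was called lower and 1 higher, on chromosome 8. Mt2 and Mt1 had 10 regions together and 6 shared ones. In mice, glucocorticoid response elements upstream of Mt2 are known to act on both genes. Upstream of Mt2, the region 7290 bp before the start, at 94165207 to 94165449, had 9.91, 8.42 and 16.3 normalized tags in dKO and 20.2, 15.2 and 20.1 in control libraries (log2 fold change -0.61, SE 0.18, limma adjusted p = 0.0299). dKO 3 exceeded control 2 there. The call was lost without dKO 1 (adjusted p = 0.128), dKO 2 (0.153), control 1 (0.0960) or control 3 (0.0812).

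Nearer to Mt2, 1228 bp before the start at 94171297 to 94171484, values were 24.1, 21.1 and 37.3 normalized tags in dKO and 41.5, 31.2 and 46.3 in control libraries. The change of -0.47 just missed the threshold (SE 0.16, limma adjusted p = 0.0510, and 0.00936 to 0.225 over the alternatives). Over the Mt1 start, whose sequence is printed above, the region at 94179001 to 94179224 had 24.7, 24.1 and 32.1 in dKO and 51.1, 30.5 and 38.8 in control libraries. Control 1 was the highest there and dKO 3 lay above control 2. The change was -0.48 and not called (SE 0.16, limma adjusted p = 0.0502), with -0.90 among the narrow and -0.19 among the wider libraries. It was called in 5 of 19 alternatives, among them the fit with width class as a term (adjusted p = 0.0265) and that without control 2 (0.0110), with 0.0110 to 0.179 over the alternatives.

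Downstream of Mt1 a region was higher in dKO. At 94186670 to 94186849, 6432 bp past the gene, there were 42.8, 36.3 and 43.1 normalized tags in dKO and 32.4, 25.6 and 28.8 in control libraries. Every dKO value exceeded every control value, and the log2 fold change was 0.54 (SE 0.12, limma adjusted p = 0.00825), with 0.41 among the narrow and 0.55 among the wider libraries. The call was lost without dKO 1 (adjusted p = 0.0507), without dKO 2 (0.0595) and without centring (0.0621). A region between, 2981 bp past Mt1, had a change of -0.01, with 24.9 to 36.6 normalized tags in dKO and 25.8 to 37.7 in control libraries. With libraries lacking a peak left missing, a further region 10990 bp past Mt1 was called higher (12.7 and 8.47 in dKO 1 and dKO 2, against 7.08 and 5.84 in control 1 and control 2), at 0.75 (SE 0.22, limma adjusted p = 0.0358).

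Tfcp2l1 was the gene with the most higher calls, all inside the gene and away from its start. It had 11 regions on chromosome 1, 6 of them shared, and 3 were called higher. Over the start, at 118627781 to 118627962, values were 49.4, 44.8 and 64.7 normalized tags in dKO and 52.6, 61.0 and 54.6 in control libraries, a change of -0.03 (limma adjusted p = 0.858). At 118682067 to 118682293, 54235 bp after the start, there were 18.8, 16.3 and 11.1 in dKO and 9.58, 7.37 and 3.92 in control libraries. The groups did not overlap, and the log2 fold change of 1.14 was the largest in size of the 51 (SE 0.28, limma adjusted p = 0.0126), with 0.94 among the narrow and 0.82 among the wider libraries. The control 3 value was near the lowest count in its list, 3.2. With pseudocount 5 the change was 0.83 (limma adjusted p = 0.0114).

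Another Tfcp2l1 region, at 118683726 to 118683997, had 7.17, 6.59 and 5.89 normalized tags in dKO and 4.79, 3.59 and 4.65 in control libraries (log2 fold change 0.56, SE 0.17, limma adjusted p = 0.0297). These control values were near the lowest counts of the control lists, 2.98, 2.78 and 3.2 in control 1 to 3. At 118643385 to 118643565 values were 8.45, 12.5 and 16.0 in dKO and 6.65, 6.17 and 10.3 in control libraries (0.66, SE 0.22, limma adjusted p = 0.0495). There dKO 1 lay below control 3, and the call was lost in 11 of 17 alternatives. These 2 weaker calls were also lost with quantile and with cyclic loess normalization, while the region at 118682067 kept its call there and lost it without dKO 1 or without dKO 2 (adjusted p up to 0.0820).

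Zbtb16 had 36 regions on chromosome 9, where the median over 16644 genes with a region was 4 and 149 genes had at least as many. Of its 12 shared regions 6 had negative and 6 positive changes, from -0.45 to 0.72. The single called region lay inside the gene at 48675274 to 48675446, with 21.8, 29.7 and 21.8 normalized tags in dKO and 18.1, 11.8 and 15.7 in control libraries. Its groups did not overlap, and the log2 fold change was 0.72 (SE 0.20, limma adjusted p = 0.0239), with 0.60 among the narrow and 0.54 among the wider libraries. Without dKO 1, dKO 2 or control 2 the call was lost (adjusted p = 0.0590, 0.159 and 0.0734). The shared region nearest to a gene end, 2501 bp outside the span at 48649181 to 48649411, had 24.5, 30.8 and 42.4 in dKO and 39.5, 34.8 and 49.2 in control libraries (-0.29, limma adjusted p = 0.229). The highest mean over called libraries belonged to a site at 48836124 to 48836296, with a peak of 44.2 in control 3 and in no other library. Peaks of the other libraries lay close beside it. At 48835866 to 48836102 there were 28.7 and 29.9 in dKO 1 and dKO 2, and 39.9 and 39.0 in control 1 and control 2. At 48836429 to 48836648 there were 34.9, 44.5 and 48.8 in dKO, and 49.6 and 30.6 in control 1 and control 2. Where libraries without a peak were left missing, the region at 48760477 to 48760664 was called higher, with 11.5, 23.1 and 22.4 in dKO and 10.1 and 8.9 in control 1 and control 2 (0.93, SE 0.27, limma adjusted p = 0.0315).

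**Figure D3:**
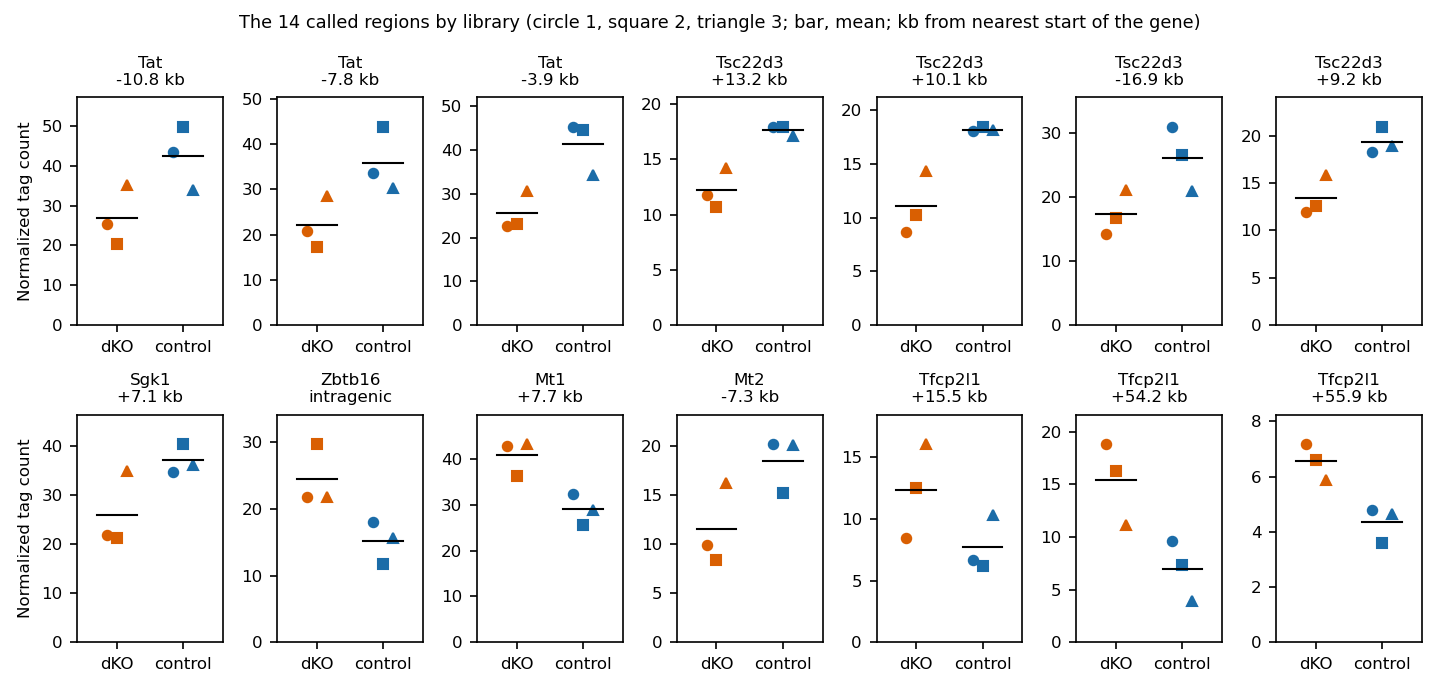
Normalized tag counts by library at the 14 called regions (circles for library 1, squares for 2, triangles for 3 of each group; black bars are means), with the distance to the gene's nearest start in the promoter table above each panel. The triangle of dKO lies nearest to the controls in most panels, and the groups overlap in 5 of the 14. Zbtb16 has no entry in the table of starts.

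Some tall sites of these genes were missing from some lists. Of the 50 regions with a mean of at least 20 normalized tags over their called libraries, 23 lacked a peak in at least 1 library (46.0%, beside 6632 of 27200 such regions in all, or 24.4%; the difference was not tested). Their median fold over the local surroundings, as the authors' lists give it, was 4.93, against 8.85 for the 27 tall regions called everywhere. The lowest fold in each list was 4. At the Errfi1 site starting at 150854126 the local fold was 4.14 to 6.21, and at the Ddit4 site starting at 59950775, which lacked a peak in dKO 3, it was 4.09 to 4.5. A missing peak at these sites does not show closed DNA. The number of the 122 regions with a peak was 99, 87 and 72 in dKO and 97, 76 and 65 in control libraries, or a mean of 86.0 ± 13.5 for dKO and 79.3 ± 16.3 for control (SD over 3 libraries a group; exact permutation test, 2-sided, p = 0.7, where 0.1 is the smallest possible). The 3 narrow-peak libraries, dKO 1, dKO 2 and control 1, had the 3 highest counts. That test does not take peak width into account.

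**Figure D4:**
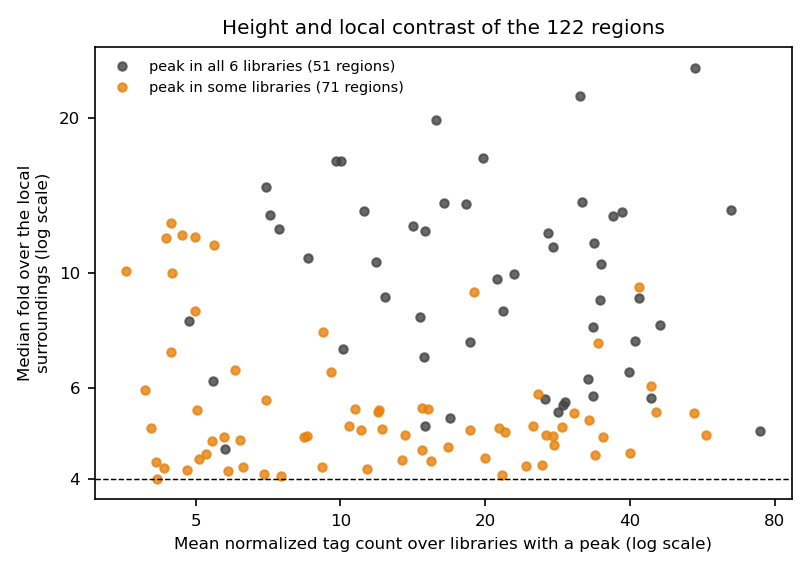
Median fold over the local surroundings against the mean normalized tag count over libraries with a peak, for the 51 regions with a peak in all 6 libraries and the 71 with a peak in some (both axes logarithmic; the dashed line is the lowest fold in the lists, 4). Many tall regions of the second kind lie just above the line.

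A list of 22 other glucocorticoid-induced genes had 209 regions at 21 of them (none at Sds), of which 76 were shared, 24 lower and 7 higher in dKO. That is 31.6% lower and 9.21% higher, beside 11.6% and 8.19% of all shared regions, with a median log2 fold change of -0.27, beside -0.02. The lower calls were spread unevenly over these genes. They took 7 of 8 shared regions at Klf15, 4 of 5 at Lpin1, 4 of 7 at Per2 and 3 of 8 at Nfkbia, but 0 of 8 at Fkbp5. The lower regions with the largest change lay inside Lpin1, a gene of triglyceride synthesis, and near Pdk4, which encodes an inhibitor of pyruvate dehydrogenase. At chromosome 12, 16634153 to 16634349, Lpin1 had 13.9, 15.2 and 29.2 normalized tags in dKO and 42.5, 39.2 and 52.5 in control libraries (log2 fold change -1.17, SE 0.19, limma adjusted p = 0.00204). Its regions starting at 16630424 and 16633351 changed by -1.06 and -1.05, and a Pdk4 region starting at 5470889 by -0.87 (limma adjusted p at most 0.0104). Another Pdk4 region, starting at 5509809, was higher, with 34.8, 31.2 and 35.8 in dKO and 21.0, 17.1 and 20.5 in control libraries (0.83, SE 0.13, limma adjusted p = 0.00163). Higher regions were also found near Klf9 (0.78), a Krüppel-like factor gene with 2 further regions called lower (-0.71 and -0.67), near Bcl6 (0.74), a transcriptional repressor gene, and inside Cdkn1a (0.67), the gene of the cell cycle inhibitor p21 (limma adjusted p at most 0.0185).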

How the data were processed

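Each library had 1 deposited peak list, written by HOMER's findPeaks per the file headers. Tools named in the submitters' processing notes are HOMER 4.11, SAMtools 1.10, Picard and Trim Galore 0.6.4, with build mm10. Not given in the sources used here are aligner, read filters and peak options. The authors' normalized tag count is a signal scaled to library depth. Their lists also hold, as deposited, a score, a fraction (the focus ratio), the fold ratio of a peak over its surroundings with a p-value, and a clonal fold ratio. The depth used in the scaling is unknown, so no interval from counts is given.

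Regions on chromosomes 1 to 19 and X were built as described above. Shared regions were compared as log2(value + 1), each library centred on its median. The test was limma 3.58.1 (R 4.3.3) with a trended prior and group as the sole term, checked on simulated data. Gene spans and starts came from RefSeq tables of GRCm38.p6, and all 10 genes and all 22 other genes matched a span. Exons and introns were not analysed here, and 1 marker list is not reported here. Members, lists, tests and the rule for named regions were chosen with earlier results of these data known. The rule took each called region, each gene's tallest region, its shared region nearest to a gene end, and up to 4 called regions per direction of the other list, and tall sites in some lists were added after their values were seen. Alternatives changed the scaling, pseudocount, filters, merging, width or replicate terms and the libraries used.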

Additional observations from a re-analysis of the deposited data

How the results depend on the processing

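Leaving out 1 library at a time gave 0 to 13 lower and 0 to 6 higher regions at the 10 genes, 7 to 30 lower and 1 to 7 higher at the other list, and 1410 to 8273 lower and 1236 to 5262 higher among all shared regions. Regions with peaks in all libraries of 1 group and none of the other then numbered 0 to 3 at the 10 genes. They numbered 1 with merging on at least 50 bp and 1 among the higher-scoring peaks of each list (above its median score), against 0. The share over all regions is not given for these counts. Without centring the 10 genes had 6 lower and 2 higher regions, the other list 4 higher and all shared regions 4655 lower and 2562 higher. Cyclic loess normalization gave 3 higher at the 10 genes, beside 4323 higher of all 51749. With a mean of at least 20 normalized tags there were 3 lower and 1 higher at the 10 genes, 14 and 1 at the other list, and 1953 and 1963 in all. Among the higher-scoring peaks there were 3 and 1, 15 and 4, and 2232 and 2488. These filters left 27 and 31 of the 51 regions. Within 10 kb the other list had 15 lower and 4 higher, counts that stand without the share over all shared regions within that distance. Within the narrow-peak libraries, chosen after seeing the data and with control 1 as the only control, 13 regions of the 10 genes were lower and 1 higher, beside 14.5% and 7.8% of all shared regions. Within the wider libraries, with dKO 3 as the only dKO library, limma called 0 lower and 0 higher, with 4 and 4 at an unadjusted p under 0.05, and 0 of all shared regions, so this fit says nothing of the 10 genes. Both fits assume that a lone library varies like the others. With the replicate number as a block the counts were 13 lower and 5 higher, beside 7384 and 5417 of all shared regions, and the Tat region at 110000090 (adjusted p = 0.0142) and the Mt1 start region (0.0178) were called by limma. Deviations of same-numbered libraries from their group means had correlations of 0.15, -0.03 and 0.23, so the numbers are not taken as a pairing. The cause of these differences was not tested. Of 438 values of single named regions under the alternatives, 354 kept their side of the threshold, 72 lost and 12 gained a call, and 0 changed the direction of a called change. The depth behind the authors' scaling limits what weak regions can show.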
